A study of Homo sapiens with 4 samples.

Results

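The SLC25 family comprises the mitochondrial carriers, small proteins of the inner membrane that move nucleotides, phosphate, carboxylates, amino acids, cofactors and metals between the cytosol and the matrix. Members were the protein-coding genes of the deposited table whose symbol is SLC25A followed by a number. SLC25A40, which lies on chromosome 7 near ABCB1, was left out of the members and is shown only as the paralogue of SLC25A39. The rule found 33 members among 15201 genes, and all 33 passed the filter on low values. A further 14 carriers of the family, among them SLC25A6, SLC25A24 and SLC25A26, are not analysed here.

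Expression was measured by mRNA sequencing in ARP-1, an established human multiple myeloma cell line. There were 2 libraries of carfilzomib-resistant cells (CfzR, replicates 1 and 2) and 2 of wild-type ARP-1 cells (WT, replicates 1 and 2). Carfilzomib is an inhibitor of the proteasome. The labels give neither the dose and length of selection, nor whether the resistant cells are a clone or a pool, nor whether the libraries of a group were grown apart. The p-values given here therefore speak for the spread among 4 libraries, which may be technical.

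Most carriers share a fold of repeated pairs of membrane helices and work as exchangers, so that entry of a substrate is tied to exit of another. The ADP/ATP and phosphate carriers feed ATP synthase. The citrate, oxoglutarate and aspartate/glutamate carriers move carbon and reducing equivalents, and the mitoferrins and the glutathione carriers serve heme and iron-sulfur synthesis and redox control. Plasma cells, from which myeloma arises, carry a heavy load of secretory protein synthesis.

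All 9 plasma cell markers listed, among them SDC1 and TNFRSF17, had a row, and their summed level was 20340 and 23800 FPKM in CfzR and 19690 and 15790 FPKM in WT. The 20 markers listed for 6 other cell types are not analysed here. FPKM counts sequenced fragments relative to the length of the transcript and the size of the library. The table holds no counts, so the depth is unknown. Its FPKM sum to 673265 in CfzR replicate 1, the lowest, and to between 877849 and 955284 in the other libraries. The CfzR libraries also differed from each other by transcript length. The log2 difference of replicate 1 from replicate 2 correlated with length at a Spearman rho of 0.466 over 12896 genes and 0.255 over the 33 members, against 0.146 over those genes and 0.146 over the members for the WT pair. These are descriptions across genes, which are not independent.

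No SLC25 member passed the test between resistant and wild-type cells. In limma on log2(FPKM + 1), 0 of 33 members passed an adjusted p of 0.05, where 0.35% of the 13411 genes tested did, 0.246% higher and 0.104% lower in CfzR (Benjamini-Hochberg over all genes). At an unadjusted p under 0.05 there were 3 members (9.09%), against 11.1% of all genes. The log2 fold changes of the members ran from -0.73 for SLC25A42, a carrier of coenzyme A, to 0.45 for SLC25A25, a calcium-regulated carrier of ATP-Mg and phosphate. Of the 33, 16 were above and 17 below 0, with a median of -0.00 beside -0.02 over all genes. Their median absolute log2 fold change was 0.21, beside 0.24 over all genes, and 26 of them lay within 0.3. Genes that passed anywhere in the table had an absolute log2 fold change of at least 1.45, and the median SE of the members was 0.21, so a count of 0 does not show that these carriers were unchanged.

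**Figure D1:**
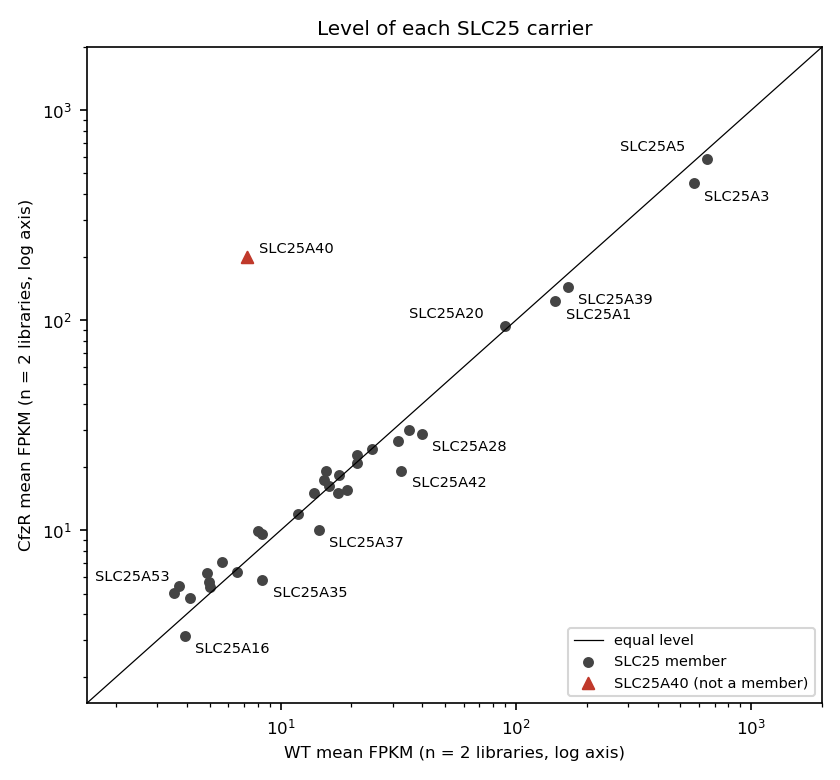
Mean FPKM of each of the 33 SLC25 members in CfzR (vertical) against WT (horizontal), both on log axes, n = 2 libraries each, with the line of equal level and SLC25A40 as a triangle. The members lie along the line over their whole range, with SLC25A42 at 19.2 FPKM in CfzR against 32.6 FPKM in WT as the member farthest from it, while SLC25A40 stands at 199.5 FPKM against 7.18 FPKM.

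The groups did not overlap for 14 members (42.4%), that is, both CfzR libraries lay on the same side of both WT libraries, where 44.7% of all genes tested did so. A share this near to the background is no result about the family. Of the 14, 4 were higher in CfzR (12.1%, against 22.1% of all genes) and 10 lower (30.3%, against 22.6%). Under quantile normalization the split was 6 higher and 6 lower, beside 22.9% and 21% of all genes. Once length and GC content were regressed out (called the length and GC correction here) it was 7 and 10, beside 23.4% and 23.8%. With a filter at 5 FPKM it was 2 and 10, beside 18.7% and 25.5%.

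Level went with the direction, in the members as in all genes. For the 5 members whose 4 libraries averaged 50 FPKM or more the median log2 fold change was -0.21, and for the 2289 genes at that level it was -0.22, of which 76.1% were negative. At 10 to 50 FPKM it was -0.01 for 16 members and -0.04 for 4541 genes, and under 10 FPKM it was 0.18 for 12 members and 0.07 for 6581 genes. With quantile normalization the median of the 5 highest members was 0.01 and that of the 2289 genes -0.01.

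The same carriers led in every library. SLC25A5 and SLC25A3 together held 57.8% and 58.4% of the summed FPKM of the members in CfzR replicates 1 and 2, and 57.9% and 61.7% in WT replicates 1 and 2. The members summed to 1735 and 1836 FPKM in CfzR, against 1956 and 2120 FPKM in WT. The FPKM of all genes also summed to less in both CfzR libraries. As a share of that total the members held 0.258% and 0.209% in CfzR, against 0.213% and 0.222% in WT, with overlapping groups. After that pair came SLC25A39, SLC25A1 and SLC25A20, and no other member had a mean above 50 FPKM.

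**Figure D2:**
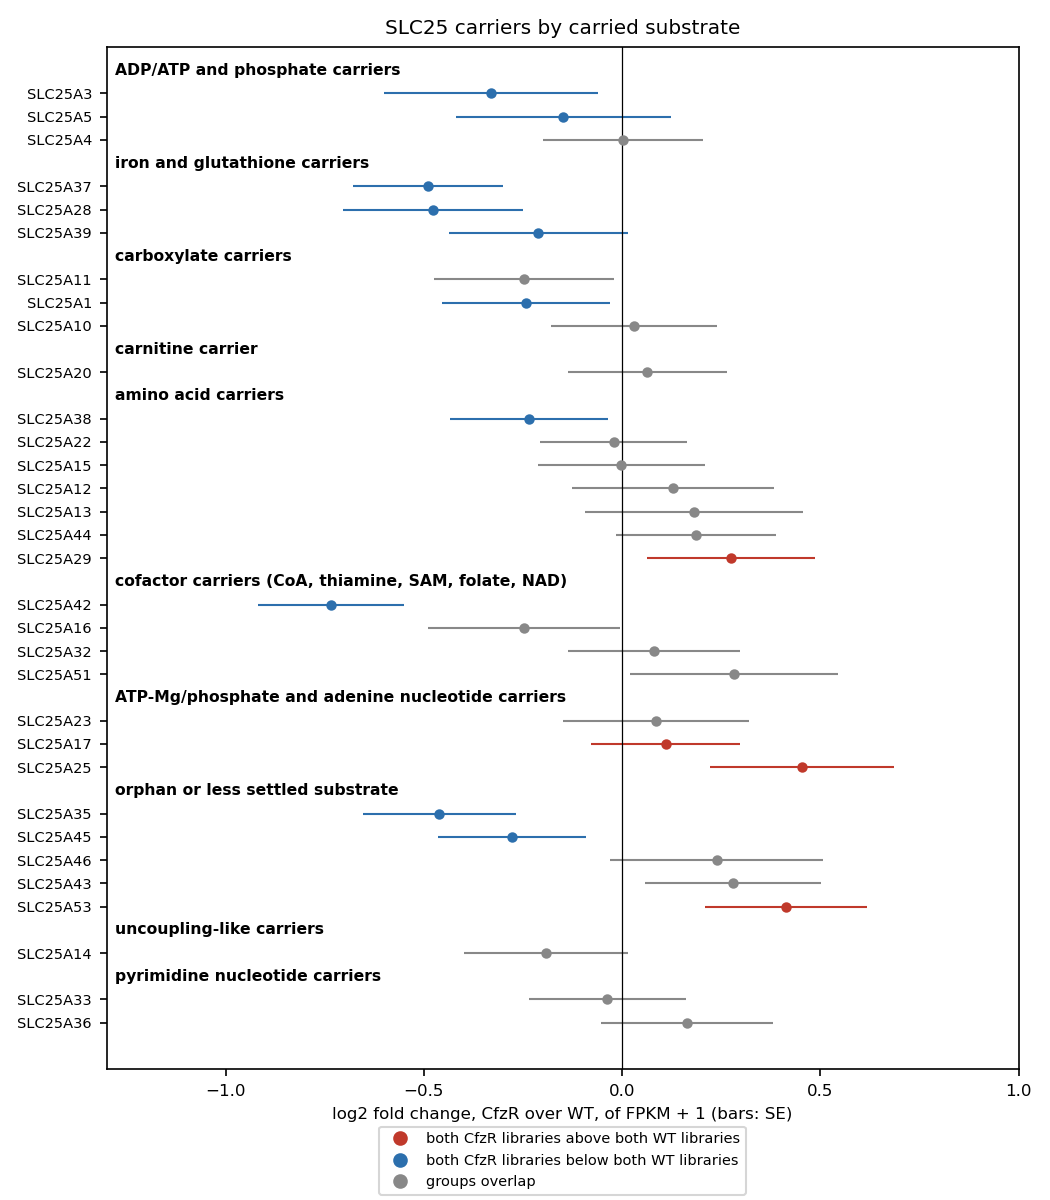
Log2 fold change (CfzR over WT, of FPKM + 1) of 32 SLC25 members with its SE from limma, n = 2 libraries per group, grouped by carried substrate. Red marks members with both CfzR libraries above both WT libraries, blue the opposite and grey an overlap. All points lie between -0.73 and 0.45, and the 3 iron and glutathione members are blue, where 22.6% of all genes tested lay lower in this way, while SLC25A40, also a glutathione carrier, is not a member and is not drawn.

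SLC25A39 and SLC25A40 are paralogues known to be needed for glutathione import into mitochondria. SLC25A39 (ENSG00000013306, GRCh38 chromosome 17, 44319625 to 44324870, minus strand) stood at 129 and 159 FPKM in CfzR, against 170 and 162 FPKM in WT. Both CfzR libraries were below both WT libraries, and CfzR replicate 2 lay close to WT. The means were 144 ± 21.4 FPKM in CfzR and 166 ± 6.19 FPKM in WT (SD, n = 2 each), with a log2 fold change of -0.21 (SE 0.23, limma adjusted p = 0.726). Without CfzR replicate 1 it was -0.06, and without CfzR replicate 2 it was -0.36. Under quantile normalization it was -0.01, and after the length and GC correction -0.06.

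SLC25A40 (ENSG00000075303, GRCh38 chromosome 7, 87833568 to 87876357, minus strand) stood at 256 and 143 FPKM in CfzR, against 7.37 and 6.99 FPKM in WT. It was named here because it rose in these libraries, so its values are a description. Its share of the summed FPKM of the pair was 66.5% and 47.4% in CfzR, against 4.15% and 4.15% in WT. The log2 ratio of SLC25A40 to SLC25A39 was 0.99 and -0.15 in CfzR, against -4.53 and -4.53 in WT. SLC25A40 was thus the more abundant of the pair in CfzR replicate 1, near par with SLC25A39 in CfzR replicate 2 and the minor form in both WT libraries. The pair summed to 385 and 302 FPKM in CfzR, against 178 and 169 FPKM in WT, a ratio of means of 1.98. With 2 libraries a group, an exact two-sided permutation test cannot go below p = 0.333.

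**Figure D3:**
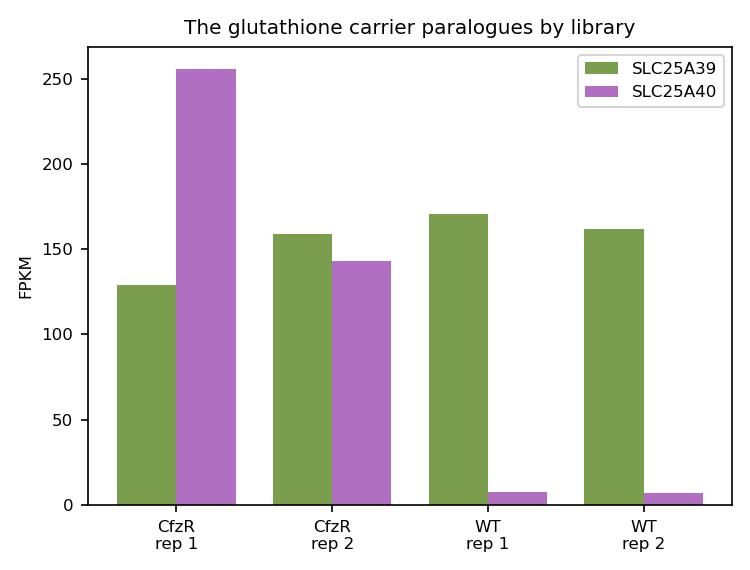
FPKM of SLC25A39 (green) and SLC25A40 (purple) in each of the 4 libraries, CfzR on the left and WT on the right, 1 bar per library. SLC25A39 stays between 129 and 170 FPKM in all 4, while SLC25A40 stands at 256 and 143 FPKM in CfzR and at about 7 FPKM in WT.

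The promoters of this pair are shown because the difference between CfzR and WT was much larger in SLC25A40 than in SLC25A39. The cause of that difference was not tested. The promoter of SLC25A42 is shown because this gene is the member with the largest difference. Each is the 250 bases before the RefSeq start on GRCh38.p14, 5′ to 3′ on the gene's strand: chr17:44324824-44325073 (minus), chr7:87876361-87876610 (minus) and chr19:19063744-19063993 (plus). Capitals mark matches to the motifs searched on both strands, which were the NRF1 motif, CCGGAAGT (ETS family), TGACGTCA (CREB), TGATGNAA (ATF4 composite) and CCAAT (NF-Y).
SLC25A39: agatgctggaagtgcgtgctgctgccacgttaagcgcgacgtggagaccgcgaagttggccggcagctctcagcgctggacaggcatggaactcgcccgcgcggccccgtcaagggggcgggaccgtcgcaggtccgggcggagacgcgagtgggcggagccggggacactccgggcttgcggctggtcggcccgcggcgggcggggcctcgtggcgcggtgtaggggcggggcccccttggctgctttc
SLC25A40: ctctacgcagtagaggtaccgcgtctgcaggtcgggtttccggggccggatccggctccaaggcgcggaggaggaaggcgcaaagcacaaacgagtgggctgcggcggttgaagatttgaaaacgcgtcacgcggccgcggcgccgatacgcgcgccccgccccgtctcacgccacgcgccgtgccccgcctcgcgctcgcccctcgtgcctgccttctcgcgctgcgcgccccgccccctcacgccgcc
SLC25A42: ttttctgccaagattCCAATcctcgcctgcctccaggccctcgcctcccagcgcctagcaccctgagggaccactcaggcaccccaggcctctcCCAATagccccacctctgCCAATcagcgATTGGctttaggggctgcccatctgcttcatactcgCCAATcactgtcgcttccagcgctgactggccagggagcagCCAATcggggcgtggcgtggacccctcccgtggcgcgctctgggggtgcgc
Neither paralogue held a match, and SLC25A42 held 6, all of them CCAAT. How often other promoters hold that many was not counted. The CCAAT letters stood in 33% of 27305 promoters of this length and in 14 of the 28 members with a promoter in the table (50%). Those 14 included SLC25A28, lower in both CfzR libraries, and SLC25A25 and SLC25A53, higher in both. The CREB letters stood in SLC25A36, SLC25A33 and SLC25A25, or 10.7% of the members beside 1.77% of all promoters. The NRF1 and ETS letters stood in 2 members each (7.14%), beside 5.53% and 3.64%, and the ATF4 letters in 1 (3.57%), beside 3.19%. A match is a run of letters, not a binding site.

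Mitoferrins bring iron across the inner membrane for heme and iron-sulfur clusters. SLC25A37, mitoferrin-1, which in blood-forming tissue serves heme synthesis, stood at 9.54 and 10.6 FPKM in CfzR, against 14.2 and 14.8 FPKM in WT. SLC25A28, mitoferrin-2, the broadly expressed form, stood at 23.9 and 33.4 FPKM in CfzR, against 42.3 and 37.3 FPKM in WT. For each of them the CfzR libraries lay below the WT libraries. The log2 fold changes were -0.49 (SE 0.19, adjusted p = 0.413) for SLC25A37 and -0.48 (SE 0.23, adjusted p = 0.491) for SLC25A28, and neither passed. SLC25A37 had an unadjusted p of 0.0361. SLC25A28 held 71.4% and 76.0% of the summed FPKM of the mitoferrins in CfzR, against 74.85% and 71.60% in WT, so their proportion overlapped between groups. Their sum was 38.7 ± 7.5 FPKM in CfzR and 54.3 ± 3.05 FPKM in WT (SD, n = 2 each). With SLC25A39, and leaving out SLC25A40, whose level was higher in both CfzR libraries, the 3 members of the iron and glutathione class reached a median of -0.48 on the log2 scale, which was -0.28 after the length and GC correction.

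SLC25A38, a carrier of glycine needed for the first step of heme synthesis, also lay lower in both CfzR libraries. Its values were 27.0 and 32.9 FPKM in CfzR, against 33.9 and 36.7 FPKM in WT (log2 fold change -0.23, SE 0.20, adjusted p = 0.664). Of the 22 genes of mitochondrial iron, heme and iron-sulfur synthesis tested, 0 passed by limma. FDX2 and FECH, 2 of the 22, had an unadjusted p under 0.05, where 11.1% of all genes did. The 22 had a median log2 fold change of -0.14, with 6 above 0 and 16 below, where 47.1% of all genes were above 0. Most of the 22 averaged more than 10 FPKM, a level at which more genes were lower. Of all genes, 55.6% were negative at 10 to 50 FPKM and 76.1% at 50 FPKM or more. FDX2, a ferredoxin of cluster synthesis, stood at 8.90 and 16.2 FPKM in CfzR, against 18.5 and 22.4 FPKM in WT (log2 fold change -0.71, SE 0.29, adjusted p = 0.433). CPOX, coproporphyrinogen oxidase of heme synthesis, went the other way with 92.9 and 75.7 FPKM in CfzR, against 53.16 and 65.25 FPKM in WT (log2 fold change 0.50, SE 0.22, adjusted p = 0.462). FECH, also of heme synthesis, was higher in CfzR as well, with 16.9 and 13.5 FPKM, against 10.15 and 10.84 FPKM in WT (log2 fold change 0.49, SE 0.20, limma adjusted p = 0.440).

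Among the 11 genes tested of glutathione synthesis and use and of SLC25A39 turnover, 0 passed by limma, at an unadjusted p under 0.05 as well, with a median log2 fold change of -0.14. GPX4, the glutathione peroxidase that reduces lipid peroxides, stood at 276 and 434 FPKM in CfzR, against 545 and 565 FPKM in WT (log2 fold change -0.68, SE 0.30, adjusted p = 0.472). TXN2, the mitochondrial thioredoxin, had 80.8 and 114 FPKM in CfzR, against 121 and 136 FPKM in WT (adjusted p = 0.554). In GPX4 and TXN2 CfzR replicate 1 was the lowest of the 4 libraries. Most of the 11 genes averaged more than 10 FPKM, a level at which more genes were lower. Of all genes, 55.6% were negative at 10 to 50 FPKM and 76.1% at 50 FPKM or more. Of the 11, 3 were above 0 and 8 below, where 47.1% of all genes were above 0. GCLM and GSR were among the 3, with both CfzR libraries above both WT libraries. Their log2 fold changes were 0.40 and 0.20 (limma adjusted p = 0.580 and 0.698).

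Cofactor carriers held the member with the largest difference. SLC25A42 (ENSG00000181035, GRCh38 chromosome 19, 19063999 to 19112888, plus strand), which carries coenzyme A into the matrix, stood at 19.9 and 18.6 FPKM in CfzR, against 32.8 and 32.5 FPKM in WT. The spread within each group was small beside the gap, and the mean ratio of CfzR to WT was 0.589. Its log2 fold change was -0.73 (SE 0.18, unadjusted p = 0.00529, limma adjusted p = 0.218), and with 1 library left out it ran from -0.78 to -0.69. SLC25A16, a relative linked to coenzyme A in yeast, had overlapping groups, with 3.523 and 2.735 FPKM in CfzR and 4.52 and 3.31 FPKM in WT.

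Groups overlapped for the carriers of folate and NAD as well. SLC25A32, which supplies folate, averaged 5.38 ± 0.921 FPKM in CfzR and 5.01 ± 0.400 FPKM in WT (SD, n = 2 each). SLC25A51, which carries NAD, had 7.72 and 4.80 FPKM in CfzR, against 4.38 and 5.36 FPKM in WT, where the high value was again that of CfzR replicate 1. The 14 genes tested of NAD, coenzyme A and thiamine synthesis had a median log2 fold change of 0.18, beside -0.02 over all genes. Of the 14, 0 passed by limma and 1 had an unadjusted p under 0.05, against 11.1% of all genes. That gene was NMNAT3, a NAD synthesis enzyme reported in mitochondria, with 2.355 and 3.786 FPKM in CfzR, against 1.58 and 0.887 FPKM in WT (log2 fold change 0.86, SE 0.29, adjusted p = 0.349). PANK2, the pantothenate kinase of mitochondria, had 26.2 and 23.7 FPKM in CfzR, against 19.6 and 20.2 FPKM in WT (adjusted p = 0.556).

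**Figure D4:**
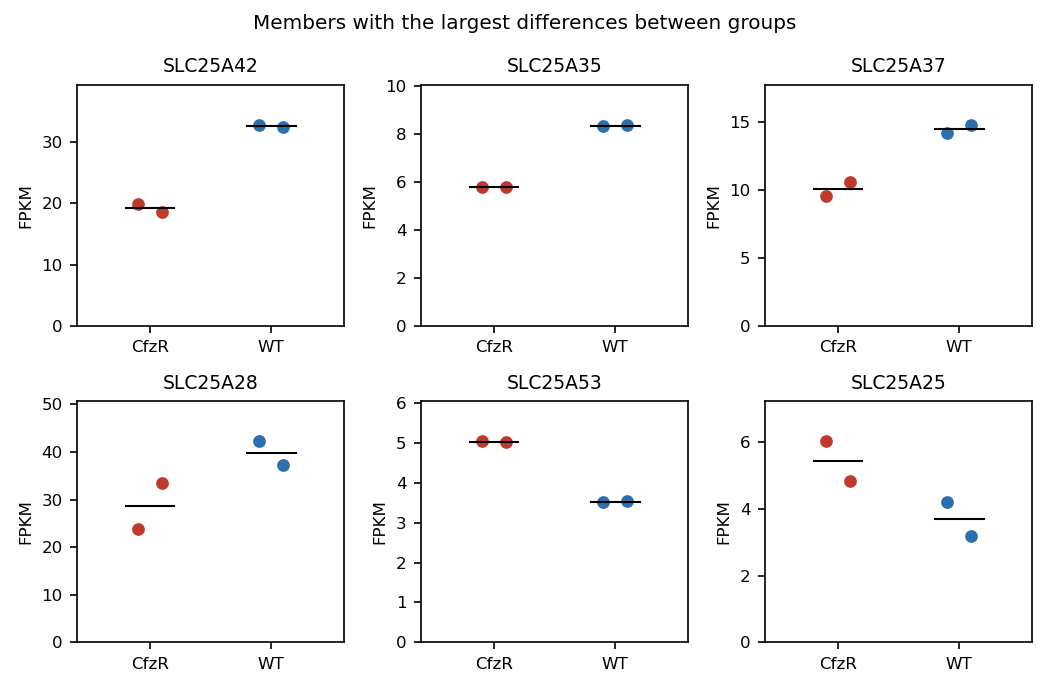
FPKM in each library (points, shifted sideways to keep them apart) and the group mean (bar) of 6 SLC25 members, CfzR left of WT in each panel, with each vertical axis starting at 0. These members have the 4 lowest and the 2 highest log2 fold changes of the family, and in each of them the 2 groups do not overlap.

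The ADP/ATP and phosphate carriers were by far the most abundant. SLC25A5, the ADP/ATP carrier of dividing cells, stood at 572.2 and 599.5 FPKM in CfzR, against 618 and 682 FPKM in WT. SLC25A3, the phosphate carrier, stood at 430.9 and 472.4 FPKM in CfzR, against 515.5 and 625.6 FPKM in WT. Both CfzR libraries were below both WT libraries for each gene, with log2 fold changes of -0.15 (SE 0.27, adjusted p = 0.841) and -0.33 (SE 0.27, adjusted p = 0.653). Under quantile normalization the signs turned, to 0.19 for SLC25A5 and 0.01 for SLC25A3. SLC25A4, the ADP/ATP carrier of muscle and heart, had 22.9 and 25.9 FPKM in CfzR, against 22.1 and 26.8 FPKM in WT, with overlapping groups. SLC25A5 held 96.15% and 95.86% of the FPKM of SLC25A4 and SLC25A5 together in CfzR, against 96.55% and 96.22% in WT. SLC25A5 has processed pseudogenes and a close paralogue, so its level is uncertain. The 4 pseudogene rows of SLC25A5 summed to 5.43 and 7.42 FPKM in CfzR, against 7.57 and 10.1 FPKM in WT.

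Partners of these carriers gave no call either. Of 9 genes of the outer membrane channel and ATP synthase tested, 0 passed by limma. For 1 of them the unadjusted p was under 0.05, against 11.1% of all genes. The median log2 fold change of the 9 was -0.20. Most of the 9 averaged above 50 FPKM, a level at which the median over all genes was -0.22. PPIF, cyclophilin D, a regulator of the permeability pore, stood at 45.5 and 46.9 FPKM in CfzR, against 60.6 and 69.5 FPKM in WT (log2 fold change -0.48, SE 0.20, adjusted p = 0.431). ATP5F1C, the gamma subunit of ATP synthase, had 224 and 348 FPKM in CfzR, against 394 and 387 FPKM in WT (adjusted p = 0.557). Carriers are delivered by the TOM70 receptor and the TIM22 translocase, and of 12 genes of that route 0 passed, 0 at an unadjusted p under 0.05 as well, with a median of -0.09. TIMM13 and TIMM9, small chaperones of the intermembrane space, differed by log2 values of -0.55 and -0.48 (adjusted p = 0.517 and 0.471). MTCH1, a carrier-like protein of the outer membrane filed under another symbol, stood at 38.3 and 49.5 FPKM in CfzR, against 62.6 and 66.5 FPKM in WT (log2 fold change -0.56, SE 0.21, adjusted p = 0.406).

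The ATP-Mg/phosphate and adenine nucleotide carriers were all on the positive side, with a median log2 fold change of 0.11 over 3 members. SLC25A25 stood at 6.04 and 4.83 FPKM in CfzR, against 4.22 and 3.19 FPKM in WT (log2 fold change 0.45, SE 0.23, adjusted p = 0.509). Its groups did not overlap, though the lower CfzR library lay only slightly above the higher WT library. SLC25A17, which carries cofactors in peroxisomes, had 15.2 and 14.9 FPKM in CfzR, against 13.25 and 14.49 FPKM in WT (adjusted p = 0.828). SLC25A23, a calcium-regulated paralogue of SLC25A25, had 26.6 and 18.9 FPKM in CfzR, against 23.37 and 18.99 FPKM in WT, with overlap. SLC25A25 held 18.5% and 20.4% of the FPKM of SLC25A23 and SLC25A25 together in CfzR, against 15.3% and 14.4% in WT. This share was higher in both CfzR libraries, by 4.61 points on average. Of 7 genes of the calcium uniporter and its exchangers 0 passed by limma, 0 at an unadjusted p under 0.05 as well, with a median of -0.07. MICU2, a gatekeeper of the uniporter, and MCU, its pore, differed by log2 values of 0.33 and -0.28 (adjusted p = 0.552 and 0.611).

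Carboxylate carriers link the citric acid cycle with the cytosol. SLC25A1, which exports citrate for lipid synthesis, stood at 119 and 130 FPKM in CfzR, against 154 and 140 FPKM in WT (log2 fold change -0.24, SE 0.21, adjusted p = 0.671). Its groups did not overlap. SLC25A11, the oxoglutarate/malate carrier, had 22.6 and 30.8 FPKM in CfzR, against 28.7 and 34.6 FPKM in WT, and SLC25A10, the dicarboxylate carrier, had 15.9 and 20.7 FPKM in CfzR, against 18.53 and 16.98 FPKM in WT. Both overlapped. The median log2 fold change of the 3 was -0.24, and it was -0.05 under quantile normalization and -0.03 after the length and GC correction. Of 11 enzymes of the malate-aspartate shuttle and citrate metabolism 0 passed, 0 at an unadjusted p under 0.05 as well, with a median of 0.03. IDH2, the mitochondrial isocitrate dehydrogenase, stood at 203 and 213 FPKM in CfzR, against 278 and 288 FPKM in WT (log2 fold change -0.44, SE 0.23, adjusted p = 0.509), and GOT1, the cytosolic aspartate aminotransferase, differed by -0.24 on the log2 scale (adjusted p = 0.648).

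SLC25A20 brings acylcarnitines into the matrix for fatty acid oxidation and is the most abundant member with overlapping groups. It stood at 96.75 and 91.15 FPKM in CfzR, against 86.1 and 93.6 FPKM in WT (log2 fold change 0.06, SE 0.20, adjusted p = 0.915). Of 9 genes of carnitine and fatty acid import 0 passed by limma and 1 had an unadjusted p under 0.05 (against 11.1% of all genes). That was SLC22A5, the plasma membrane carnitine transporter, with 2.70 and 2.86 FPKM in CfzR, against 1.265 and 1.379 FPKM in WT (log2 fold change 0.70, SE 0.23, adjusted p = 0.328). CPT1B, a carnitine palmitoyltransferase, had 10.2 and 17.9 FPKM in CfzR, against 19.01 and 19.92 FPKM in WT (adjusted p = 0.535). The pyruvate carrier and the sideroflexins, which lie outside the SLC25 family, held 0 of 7 past the threshold by limma and 0 at an unadjusted p under 0.05. Among them SFXN4 and SFXN5 differed by log2 values of -0.69 and 0.56 (groups apart in both genes, adjusted p = 0.485 and 0.509).

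Amino acid carriers went both ways, with 4 of 7 above 0 and a median log2 fold change of 0.13. SLC25A13, an aspartate/glutamate carrier, is the member on chromosome 7 (GRCh38, 96120220 to 96322147) and starts 8.24 Mb beyond the end of SLC25A40. It had 5.54 and 3.98 FPKM in CfzR, against 5.12 and 3.14 FPKM in WT, with overlap (log2 fold change 0.18, SE 0.27, adjusted p = 0.803). Its paralogue SLC25A12 had 7.01 and 4.30 FPKM in CfzR, against 4.88 and 5.05 FPKM in WT. SLC25A12 held 55.9% and 51.9% of the FPKM of this pair in CfzR, against 48.8% and 61.7% in WT. SLC25A22, a glutamate carrier, averaged 20.8 ± 0.917 FPKM in CfzR and 21.1 ± 0.443 FPKM in WT (SD, n = 2 each), and SLC25A15, the ornithine carrier, 16.3 ± 3.20 FPKM in CfzR and 16.1 ± 0.208 FPKM in WT.

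SLC25A29, a carrier of basic amino acids, was the amino acid carrier whose CfzR libraries both lay higher. It had 6.21 and 7.88 FPKM in CfzR, against 5.45 and 5.78 FPKM in WT (log2 fold change 0.27, SE 0.21, adjusted p = 0.637). SLC25A44, which carries branched-chain amino acids, averaged 9.62 ± 0.984 FPKM in CfzR and 8.33 ± 0.866 FPKM in WT, with overlap. Of 12 enzymes of glutamate, proline and ornithine metabolism 0 passed by limma. For 2 of them the unadjusted p was under 0.05, against 11.1% of all genes. ALDH4A1, of proline breakdown, stood at 3.31 and 4.49 FPKM in CfzR, against 6.79 and 6.78 FPKM in WT (log2 fold change -0.68, SE 0.22, adjusted p = 0.328). ASL, argininosuccinate lyase, stood at 40.7 and 53.3 FPKM in CfzR, against 33.04 and 30.63 FPKM in WT (log2 fold change 0.54, SE 0.21, adjusted p = 0.420). Of 12 genes of folate and glycine metabolism 0 passed, 0 at an unadjusted p under 0.05 as well. Their median log2 fold change was 0.06, with 7 above 0 and 5 below. GLDC, of the glycine cleavage system, stood at 65.4 and 88.4 FPKM in CfzR, against 94.7 and 124 FPKM in WT (log2 fold change -0.51, SE 0.25, adjusted p = 0.501).

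The pyrimidine nucleotide carriers had overlapping groups. SLC25A36 stood at 20.1 and 14.6 FPKM in CfzR, against 15.0 and 15.5 FPKM in WT, and SLC25A33 at 6.13 and 6.48 FPKM in CfzR, against 6.17 and 6.84 FPKM in WT. SLC25A36 held 76.7% and 69.3% of their summed FPKM in CfzR, against 70.9% and 69.3% in WT. The 8 genes tested of mitochondrial nucleotide supply and DNA upkeep had a median log2 fold change of -0.28, beside -0.02 over all genes. Of the 8, 3 were above 0 and 5 below. By limma 0 passed and 1 had an unadjusted p under 0.05, against 11.1% of all genes. That gene was TWNK, the helicase of mitochondrial DNA, at 6.63 and 7.84 FPKM in CfzR, against 12.1 and 15.0 FPKM in WT (log2 fold change -0.82, SE 0.21, adjusted p = 0.222). DGUOK, a kinase of purine deoxynucleosides, differed by -0.40 on the log2 scale (adjusted p = 0.561).

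Several carriers have a less settled substrate, SLC25A35 and SLC25A53 among them. SLC25A35 (ENSG00000125434, GRCh38 chromosome 17, 8287763 to 8295343, minus strand) stood at 5.78 and 5.80 FPKM in CfzR, against 8.315 and 8.385 FPKM in WT (log2 fold change -0.46, SE 0.19, unadjusted p = 0.0482, adjusted p = 0.445). SLC25A53 (ENSG00000269743, GRCh38 chromosome X, 104099214 to 104157027, minus strand) stood at 5.04 and 5.01 FPKM in CfzR, against 3.52 and 3.53 FPKM in WT (log2 fold change 0.41, SE 0.20, adjusted p = 0.502). In both genes the libraries of a group were nearly equal and the groups stood apart, SLC25A35 lower and SLC25A53 higher in CfzR. The SE of limma draws on genes of like level as well as on these libraries.

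SLC25A45 had 15.1 and 16.0 FPKM in CfzR, against 18.2 and 20.0 FPKM in WT (adjusted p = 0.589), and lay lower in both CfzR libraries. SLC25A46, an outer membrane protein of mitochondrial fission, had 24.2 and 14.2 FPKM in CfzR, against 16.1 and 15.2 FPKM in WT. CfzR replicate 1 alone was high there, and its log2 fold change of 0.24 became -0.11 with the length and GC correction. SLC25A43 averaged 9.98 ± 1.68 FPKM in CfzR and 8.04 ± 1.35 FPKM in WT, and SLC25A14, which resembles the uncoupling proteins, 15.1 ± 1.03 FPKM in CfzR and 17.5 ± 2.98 FPKM in WT (SD, n = 2 each), both with overlap.

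Over all 13 partner lists, 136 of 156 genes were tested and 0 passed by limma. At an unadjusted p under 0.05 there were 9 (6.62%, against 11.1% of all genes), the groups did not overlap for 64 (47.1%, against 44.7%), and the median log2 fold change was -0.07 beside -0.02 over all genes.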

How the data were processed

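The authors deposited 1 table of FPKM for 15201 Ensembl gene IDs in the 4 libraries. Reads went through STAR and Cufflinks, per the submitters' processing notes. Versions, genome build and strandedness were not found in the labels or the header, and the FPKM unit was read from the tool, the header and the values. Columns with a short name for a control were taken as WT, the only other group. Symbols matched by ID for 15027 genes. Positions, gene types and transcript lengths are those of GENCODE release 29 (GRCh38), and promoters those of RefSeq.

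Of all genes, 13411 averaged 1 FPKM or more and were kept after a transform to log2(FPKM + 1). The test was that of limma (version 3.58.1, under R 4.3.3), applied to each gene (two-sided, mean-variance trend, Benjamini-Hochberg over all genes, threshold 0.05 on the adjusted p). Fold changes on this scale understate changes of low genes. By the naming rule the text gives library values for members past the threshold, SLC25A39, the most abundant member of each substrate class, the largest differences in each direction among members with groups apart, and the paralogue sets, and of each partner list the members past the threshold and up to 2 with groups apart and the largest absolute log2 fold change. The remaining members and the partners FECH, GCLM and GSR were added, and the counts cover all 33 members. The single values of 1 member and 1 partner are not reported here. The members, classes and lists were chosen with earlier results of these data known.

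The fit was repeated with a pseudocount of 0.1 or 5, with the filter dropped or set at 5 FPKM, with TMM scaling (trimmed means of M-values, computed in R) or quantile normalization, without the trend, with replicate numbers as a block, and without each library in turn. A correction for length and GC share (splines with 4 degrees of freedom, 12896 genes) was added after seeing the data.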

Additional observations from a re-analysis of the deposited data

How the results depend on the processing

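Of 412 log2 fold changes of 32 single members under the alternatives, 382 kept their sign and their side of the threshold and 29, over 14 members, changed sign; the largest of those 14 was 0.33 in absolute size. The replicate numbers gave a correlation of 0.252 between the deviations of same-numbered libraries over 2 pairs, and the labels do not say what a number shares. With the replicate block 1 member passed (SLC25A42, log2 fold change -0.73, adjusted p = 0.0101, range over its alternatives 0.0101 to 0.954), with 4 partners (FDX2, NMNAT3, SFXN4 and TWNK) and 1242 of all genes (487 higher and 755 lower), against 47 without it. The count over all genes was 27 with a filter at 5 FPKM, and 16 without CfzR replicate 1, 17 without CfzR replicate 2, 260 without WT replicate 1 and 148 without WT replicate 2; 0 members and 0 partners passed in those 4 fits.

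Under quantile normalization the median of the members was 0.052, that of the ADP/ATP and phosphate carriers 0.064, of the carboxylate carriers -0.051, of the carnitine carrier 0.25 and of the orphan carriers 0.27, and the signs turned for SLC25A5 (0.19), SLC25A3 (0.013), SLC25A22 (0.035) and SLC25A15 (0.052). The difference in share was then 0.270 points for SLC25A5 and 3.21 points for SLC25A25. After the length and GC correction, chosen after seeing the data, the medians were -0.033 for the members, -0.28 for iron and glutathione, -0.035 for carboxylate, 0.15 for carnitine, -0.11 for orphan and -0.070 for pyrimidine carriers, and the signs turned for SLC25A4 (-0.052), SLC25A22 (0.12), SLC25A46 (-0.11), SLC25A36 (-0.047), SLC25A15 (0.090) and SLC25A32 (-0.025). The orphan median was 0.25 with a pseudocount of 0.1, 0.20 with 5, -0.020 with a filter at 5 FPKM and 0.25 under TMM. SLC25A15 was 0.000354 with a pseudocount of 5 and 0.011 under TMM. The causes were not tested. A single factor per library cannot move a share within a library.

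With 1 library left out, the lone library being assumed to vary like the others, 18 to 31 members had groups apart, where 62.8% to 83.8% of all genes did, and the median of the members ran from -0.072 to -0.0013. The log2 fold change ran from -0.15 to 0.21 for SLC25A10, -0.17 to 0.43 for SLC25A12, -0.10 to 0.46 for SLC25A13, -0.19 to 0.19 for SLC25A15, -0.065 to 0.021 for SLC25A22, -0.15 to 0.32 for SLC25A23, -0.068 to 0.23 for SLC25A32, -0.10 to 0.027 for SLC25A33, -0.053 to 0.38 for SLC25A36, -0.13 to 0.13 for SLC25A4, -0.13 to 0.60 for SLC25A46 and -0.012 to 0.58 for SLC25A51. Class medians ran from 0.097 to 0.32 for ATP-Mg, -0.014 to 0.19 for amino acid, -0.31 to -0.031 for carboxylate, -0.56 to -0.24 for iron and glutathione and -0.13 to 0.42 for orphan carriers. The depth is unknown, so counting error could not be given.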
